A study of Capra hircus with 9 samples.

Results

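Collagen chain genes are the genes that encode the alpha chains of the collagens, and their RNA was followed here in the submandibular gland of goats of 3 ages. A gene was taken as a member when its symbol had the form COL, a number, A and a number, which found 44 genes, or when the product of its RefSeq entry was described as a collagen alpha chain, which added 4 genes listed under LOC symbols. These 48 genes were among 21665 genes in the table, and they were represented by 153 transcripts, of which 113 were RefSeq transcripts and 40 were transcripts newly assembled by the authors. By the kind of assembly their chains form, 11 genes were fibrillar, 6 encoded type IV chains, 5 type VI chains, 1 the anchoring fibril chain, 10 fibril-associated chains (FACITs), 3 short chain network chains, 4 transmembrane chains and 2 multiplexins, and 2 belonged to other classes. The 4 genes known by product description only were kept apart.

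Whole submandibular glands, a pair of salivary glands under the lower jaw, were taken after slaughter from healthy female Lubo goats, 3 animals at 1 month, 3 at 12 months and 3 at 24 months of age. Housing and feeding did not differ between the groups, per the labels, which name no treatment and set the groups apart by age. Each goat gave 1 library, for which ribosomal RNA was removed, per the labels, and the strand was marked with dUTP. The comparison of ages asks which transcripts differ as the gland develops.

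Collagens are triple helices of alpha chains. Fibroblasts secrete the fibrillar collagens, which are trimmed outside the cell and packed into the fibrils that give connective tissue its tensile strength, while type IV collagen forms the sheet of the basement membrane under epithelia and around vessels, and type VI collagen forms beaded filaments between them. In salivary glands, collagen lies in the capsule, in the septa between lobules and around ducts and acini, and collagen at the basement membrane takes part in branching of the growing gland. RNA is not protein, and collagen protein in tissue turns over slowly, so RNA levels do not give the collagen content of a gland.

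Total expected counts were 11546808 to 17586065 per library at 1 month, 18231894 to 21065278 at 12 months and 22040776 to 24901065 at 24 months. The 10 most abundant transcripts took 4.86% to 12.4% of the counts at 1 month and 23.2% to 37.1% in the adult libraries. Levels are given as CPM, counts relative to the depth of their library after TMM scaling (trimmed mean of M values), so a level compares one gene or one class between libraries and not 1 gene with another, because transcript lengths were not used here. The labelled tissue was checked with 10 markers of salivary acini and ducts, all of them in the table, whose summed level was 563 to 1977 CPM at 1 month and 9807 to 27550 CPM in the adult libraries. Markers of thymocytes and thymic epithelium, which do not belong to a salivary gland, summed to 2605, 8385 and 1184 CPM in 1 month replicates 1, 2 and 3 and to 2.28 to 9.57 CPM in the 6 adult libraries. Among the 1-month libraries, replicate 2 had the highest thymus marker level, the lowest salivary marker level and a fibroblast marker level of 298 CPM, against 655 and 718 CPM in the other 1-month libraries and 489 to 820 CPM in the adults. Fits of the collagen chain genes without this library are given after those with all libraries. In whole glands, fewer cells of a type and less RNA per cell cannot be told apart.

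As a sum, the 11 fibrillar genes were lower in the adult glands, and their 1-month libraries differed widely. Their summed level was 5268, 1264 and 6170 CPM at 1 month (4234 ± 2611, SD, n = 3), 1179, 459 and 480 CPM at 12 months (706 ± 410, SD, n = 3) and 508, 419 and 836 CPM at 24 months (587 ± 219, SD, n = 3). Every 1-month library lay above every adult library, with 1 month replicate 2 close to 12 months replicate 1. COL1A1, COL1A2 and COL3A1 supplied most of the sum in every library. The sum leaves out LOC108634769, an alpha-1(I) chain-like gene that was not taken as a member. Of the single genes, 4 of 11 passed at 12 months and 5 of 10 at 24 months, all lower (11.8% and 10.6% of all genes). COL11A2 went the other way, with every 24-month library above every 1-month library, without passing the test. Fibrillar chains took 71.6%, 51.3% and 72.1% of all collagen counts at 1 month, 46.6%, 28.8% and 30.7% at 12 months and 34.2%, 27.2% and 32.2% at 24 months. These shares rest on 27340 to 135201 collagen counts per library, and their 95% Wilson intervals were at most 1.12 percentage points wide, which covers counting error only. The share ranges of the 1-month and the adult libraries did not overlap.

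**Figure D1:**
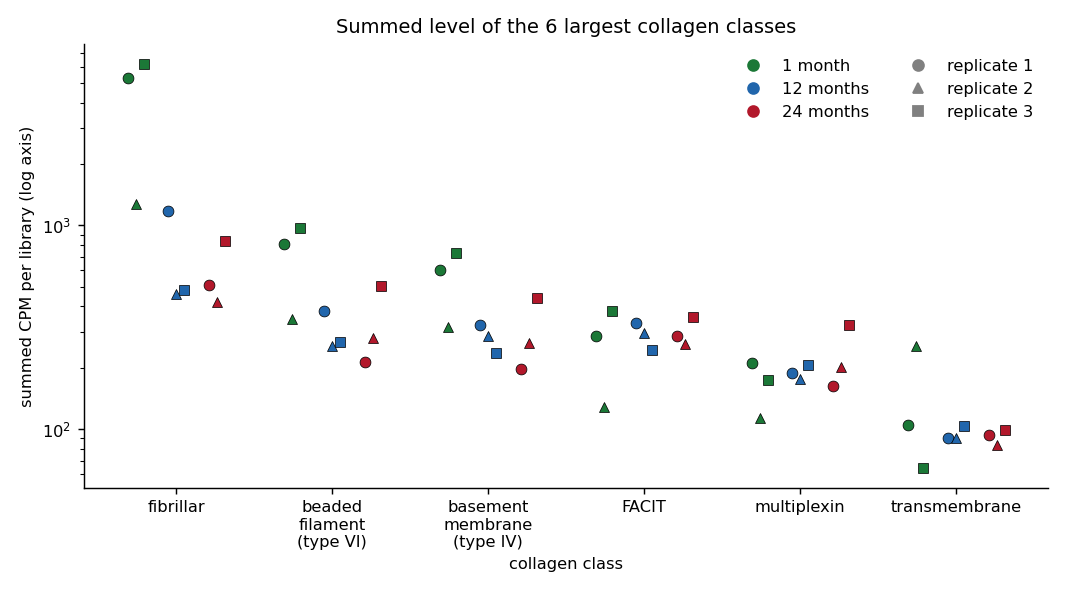
Summed CPM of each of the 6 largest collagen classes in the 9 libraries, on a log axis. Colours give the age and symbols the replicate. The fibrillar class is the one in which the 1-month libraries (1264 to 6170 CPM) all lie above the adult libraries (419 to 1179 CPM), while the FACIT and multiplexin classes overlap.

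COL1A1 encodes the major chain of type I collagen, the main collagen of skin, tendon, bone and gland stroma. Its level was 1632, 520 and 2034 CPM at 1 month (1395 ± 784, SD, n = 3), 364, 118 and 101 CPM at 12 months (194 ± 147, SD, n = 3) and 121, 120 and 308 CPM at 24 months (183 ± 108, SD, n = 3). All 1-month libraries lay above all adult libraries, the lowest being replicate 2. In expected counts COL1A1 had 9958 to 32127 at 1 month and 1885 to 6575 in the adults. LOC108634769, an alpha-1(I) chain-like gene that is not a member, had 5593 to 24006 and 11450 to 49705. Whether the counting split reads between the 2 genes was not tested, so the fall holds for counts assigned to COL1A1 only. COL1A1 fell 6.82-fold from 1 to 12 months (log2 fold change -2.77, SE 0.720) and 6.94-fold from 1 to 24 months (-2.79, SE 0.681), with adjusted p = 0.0413 and 0.0277 in edgeR's quasi-likelihood test with Benjamini-Hochberg adjustment over all genes tested.

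COL1A2, the partner chain of type I collagen, had 1075, 233 and 1240 CPM at 1 month, 270, 107 and 80.5 CPM at 12 months and 108, 90.8 and 211 CPM at 24 months. The 1-month and 24-month libraries did not overlap, whereas 12 months replicate 1 lay above 1 month replicate 2. The fall was called at 24 months (log2 fold change -2.50, SE 0.688, adjusted p = 0.0406), and the value at 12 months was -2.40 (SE 0.736) with an adjusted p of 0.0637 in the same edgeR test. The ratio of COL1A1 to COL1A2 counts, which compares libraries and not the number of chains, was 1.52, 2.23 and 1.64 at 1 month, 1.35, 1.10 and 1.25 at 12 months and 1.12, 1.32 and 1.46 at 24 months. All 1-month ratios lay above all adult ratios, and no test was made of them.

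COL3A1 forms type III collagen, which is laid down with type I in distensible and young tissue. Its level was 2276, 435 and 2546 CPM at 1 month (1752 ± 1149, SD, n = 3), 437, 162 and 222 CPM at 12 months (274 ± 145, SD, n = 3) and 205, 149 and 238 CPM at 24 months (198 ± 45.1, SD, n = 3). At 12 months replicate 1 just overlapped with 1 month replicate 2, and at 24 months no library reached the 1-month range. COL3A1 fell 8.07-fold by 24 months (log2 fold change -3.01, SE 0.704, edgeR adjusted p = 0.0237), and its value at 12 months, -2.60 (SE 0.734), had an adjusted p of 0.0516.

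Type V collagen starts and limits the growth of type I fibrils. Its gene COL5A1 had 65.6, 22.2 and 71.3 CPM at 1 month, 19.4, 7.53 and 11.4 CPM at 12 months and 9.07, 12.6 and 22.3 CPM at 24 months, and fell by 1.97 on the log2 scale by 12 months (SE 0.532, edgeR adjusted p = 0.0456). The 12-month libraries lay below the 1-month range, and the highest 24-month library just entered it (log2 fold change -1.72, SE 0.547, adjusted p = 0.0632). COL5A2, which lies next to COL3A1 in the genome with no protein-coding gene between them, had 148, 26.1 and 188 CPM at 1 month, 41.0, 27.8 and 22.8 CPM at 12 months and 21.6, 19.0 and 21.8 CPM at 24 months. It fell by 2.40 on the log2 scale by 24 months (SE 0.645, edgeR adjusted p = 0.0372), and its value at 12 months was -1.90 (SE 0.665, adjusted p = 0.0875). LOC102187872, described as a collagen alpha-1(V) chain, had 44.03, 17.0 and 48.8 CPM at 1 month, 13.8, 6.32 and 6.25 CPM at 12 months and 7.33, 4.30 and 12.3 CPM at 24 months, with all adult libraries below all 1-month libraries. It fell by 1.99 (SE 0.509) and 2.07 (SE 0.552) on the log2 scale by 12 and 24 months (edgeR adjusted p = 0.0397 and 0.0363), and where its sequence is shared with COL5A1 the counting could have split reads between them.

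COL11A1, a minor fibrillar chain found inside cartilage and other fibrils, was low at every age. It had 9.72, 7.54 and 6.36 CPM at 1 month (7.87 ± 1.71, SD, n = 3), 0.577, 1.15 and 1.75 CPM at 12 months (1.16 ± 0.585, SD, n = 3) and 0.291, 0.226 and 0 CPM at 24 months (0.172 ± 0.153, SD, n = 3). The 3 ages did not overlap, and 1 month replicate 2 lay inside the range of its group. COL11A1 fell 6.48-fold by 12 months (log2 fold change -2.70, SE 0.527, adjusted p = 0.0195) and 41.0-fold by 24 months (-5.36, SE 0.921, adjusted p = 0.00993) in the edgeR test. The difference between 24 and 12 months was -2.67 (SE 0.927) with an adjusted p of 0.429. The fold at 24 months rests on 5.35, 4.68 and 0 expected counts, close to the 3 counts per library taken here as the floor of detection.

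COL2A1, the chain of cartilage collagen, had 1.63, 2.43 and 2.89 CPM at 1 month, 0.206, 0.330 and 0.175 CPM at 12 months and 0, 0.339 and 0.464 CPM at 24 months, where the floor of 3 counts was 0.145 to 0.190 CPM per library. Both adult groups lay below the 1-month libraries and near the floor. Its value was -3.21 (SE 0.558, edgeR adjusted p = 0.0146) by 12 months, a called fall, and -2.95 (SE 1.02, adjusted p = 0.0798) by 24 months. The other fibrillar genes, COL5A3, COL11A2, COL24A1 and COL27A1, did not pass the test at either age with all libraries. COL5A3 had a log2 fold change of -1.37 by 24 months, COL27A1 had -0.22 and -1.49, and COL11A2 had 0.95 and 1.34. COL24A1 was tested at 12 months only, with a value of 0.57. For COL5A3 and COL27A1, 1 month replicate 2 was the lowest of its age, so leaving it out lowers the values by itself. Without it COL5A3 was called lower at both ages (-1.49 and -1.81, edgeR adjusted p = 0.00334 and 0.00727) and COL27A1 at 24 months (-1.90, adjusted p = 0.0244).

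**Figure D2:**
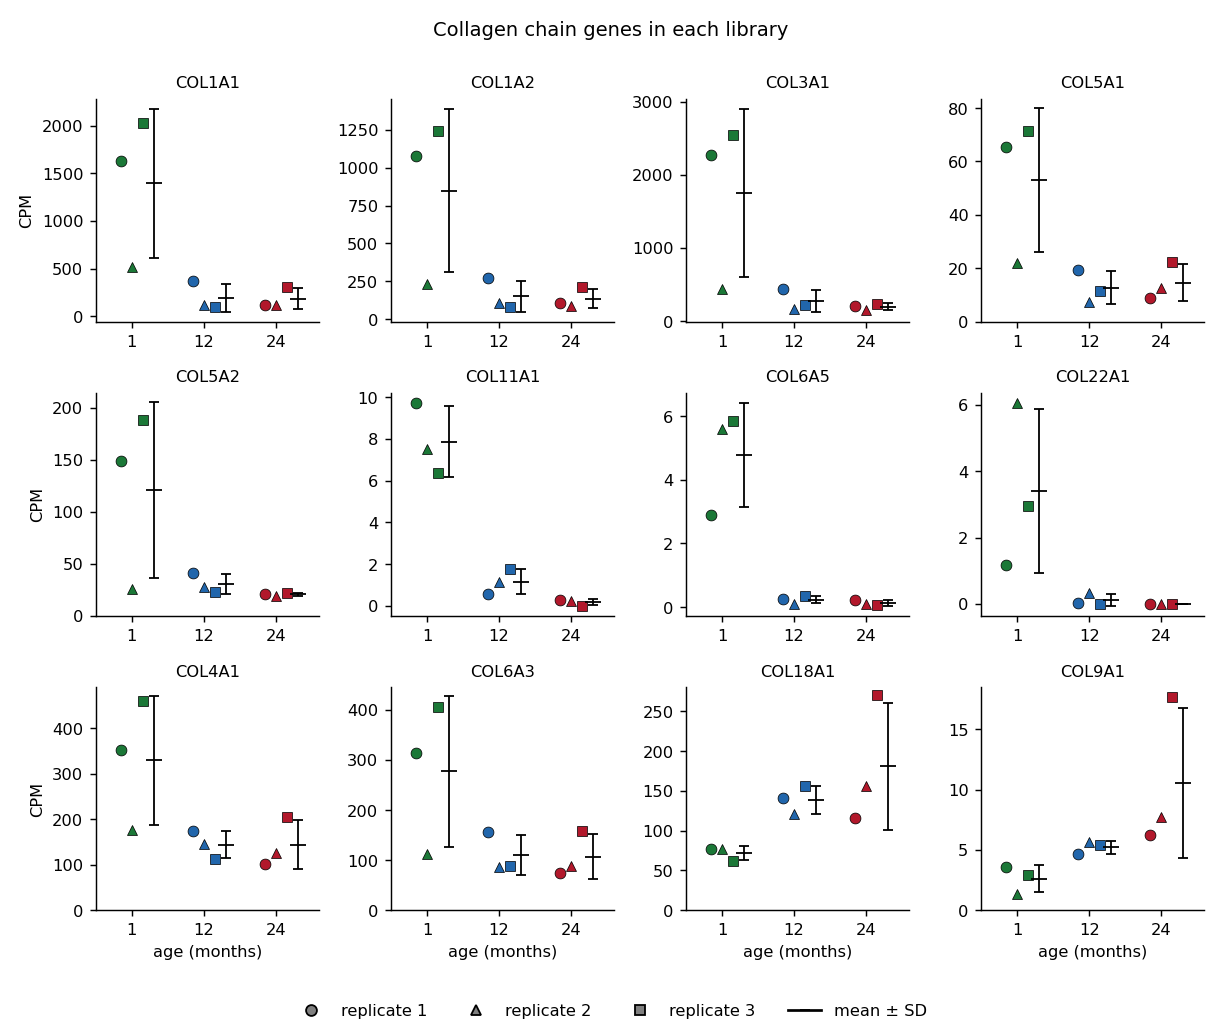
CPM of 12 collagen chain genes in each library by age in months, each panel with its own linear axis. Symbols give the replicate and the bar beside them the mean ± SD (n = 3). In COL1A1, COL1A2, COL3A1, COL5A1 and COL5A2 the triangle of 1 month replicate 2 lies far below the other 1-month libraries, while in COL11A1 and COL6A5 all 3 lie above every adult library.

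Type VI collagen is a heterotrimer whose common chains come from COL6A1, COL6A2 and COL6A3, and none of these passed the test. COL6A1 had 256, 122 and 293 CPM at 1 month, 119, 93.9 and 94.3 CPM at 12 months and 70.9, 99.9 and 189 CPM at 24 months, with log2 fold changes of -1.05 (SE 0.362, edgeR adjusted p = 0.0833) and -0.76 (SE 0.516, adjusted p = 0.330). COL6A2, its neighbour in the genome, had 219, 103 and 230 CPM, then 98.8, 69.8 and 78.7 CPM, then 63.5, 90.2 and 151 CPM, with values of -1.09 (SE 0.357, adjusted p = 0.0748) and -0.73 (SE 0.485, adjusted p = 0.325). For both genes the 12-month libraries lay just below the lowest 1-month library and the 24-month libraries overlapped with it. COL6A3 had 314, 112 and 406 CPM at 1 month, 157, 86.7 and 88.3 CPM at 12 months and 74.4, 87.5 and 158 CPM at 24 months, overlapping at both ages, with values of -1.25 (SE 0.503) and -1.24 (SE 0.553) and edgeR adjusted p of 0.120 and 0.153. The ratio of COL6A1 to COL6A2 counts stayed between 1.11 and 1.35 in all 9 libraries.

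COL6A5 encodes an alternative to the COL6A3 chain in type VI collagen. It had 2.89, 5.60 and 5.84 CPM at 1 month (4.77 ± 1.64, SD, n = 3), 0.248, 0.110 and 0.350 CPM at 12 months and 0.232, 0.113 and 0.0516 CPM at 24 months. The adult libraries lay near or under the floor and all 1-month libraries above them, so the size of the fold is poorly determined. COL6A5 fell by 4.24 on the log2 scale by 12 months (SE 0.636, edgeR adjusted p = 0.0109) and fell by 5.12 by 24 months from 1 month (SE 0.780, adjusted p = 0.00741). The adult ages overlapped and were not tested against each other. COL6A6, the other alternative chain, which lies next to COL6A5 in the genome, had 3.13 to 32.9 CPM at 1 month and 3.38 to 6.10 CPM in the adults, with values of -1.85 and -2.16 that did not pass (adjusted p = 0.124 and 0.0753).

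Of the 6 type IV genes, whose chains form the basement membrane, 1 passed the test. COL4A1 and COL4A2, adjacent genes whose chains form the common network, had 352, 176 and 459 CPM and 218, 121 and 254 CPM at 1 month. At 12 months they had 173, 146 and 113 CPM and 138, 124 and 103 CPM, and at 24 months 102, 125 and 205 CPM and 80.1, 130 and 219 CPM. COL4A1 lay just below the 1-month range at 12 months, and the other 3 contrasts overlapped. The log2 fold changes of COL4A1 were -1.12 (SE 0.394, edgeR adjusted p = 0.0885) and -1.06 (SE 0.491, adjusted p = 0.168), and those of COL4A2 were -0.63 (SE 0.329, adjusted p = 0.201) and -0.33 (SE 0.494, adjusted p = 0.672). The ratio of COL4A1 to COL4A2 counts was 1.62, 1.46 and 1.81 at 1 month, 1.25, 1.18 and 1.09 at 12 months and 1.28, 0.965 and 0.939 at 24 months, with all 1-month ratios above all adult ones, untested.

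COL4A3, a chain of a more specialised basement membrane network, was the 1 type IV gene that passed, and it was higher in the adult. It had 0.517, 0.211 and 0.111 CPM at 1 month, 1.53, 1.54 and 1.14 CPM at 12 months and 2.27, 0.396 and 1.29 CPM at 24 months. The 12-month libraries lay above the 1-month libraries, which were near the floor, and the 24-month libraries overlapped with them. Its log2 fold change was 2.36 by 12 months (SE 0.639, edgeR adjusted p = 0.0459), a call that held in 2 of 8 other settings and in 1 of 6 fits that left out a library, and 2.31 by 24 months (SE 0.897, adjusted p = 0.110). Its neighbour COL4A4 had values of 0.83 and 1.08, and the adjacent genes COL4A5 and COL4A6 of the X-linked network had -0.87 and -0.43 at 12 months and -1.21 and -0.90 at 24 months, none of which passed.

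The FACITs lie on the surface of fibrils, and 7 of the 10 were tested in each comparison with 1 month. COL22A1, a chain of tissue junctions such as that of muscle and tendon, had 1.18, 6.06 and 2.94 CPM at 1 month, 0.0410, 0.330 and 0 CPM at 12 months and 0 CPM in all 3 libraries at 24 months. It was highest in 1 month replicate 2, which had the lowest fibrillar level and the highest thymus marker level of the 1-month libraries. All 1-month libraries lay above the adult ones. COL22A1 fell by 12 months (log2 fold change -4.63, SE 1.17, edgeR adjusted p = 0.0385) and by 24 months (adjusted p = 0.0130). Against the floor of 3 counts per library, the mean at 24 months was at least 22.0-fold lower than at 1 month.

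COL9A1, a chain of type IX collagen and best known from cartilage, was the FACIT that rose. It had 3.55, 1.34 and 2.94 CPM at 1 month (2.61 ± 1.14, SD, n = 3), 4.62, 5.66 and 5.37 CPM at 12 months (5.22 ± 0.539, SD, n = 3) and 6.22, 7.69 and 17.7 CPM at 24 months (10.5 ± 6.24, SD, n = 3). The 3 ages did not overlap, and 24 months replicate 3 was far above the others. Its log2 fold change was 1.07 by 12 months (SE 0.449, edgeR adjusted p = 0.132), and it rose by 2.14 by 24 months (SE 0.600, adjusted p = 0.0428), a call that held in 4 of 8 other settings. Of the other type IX chains, COL9A3 had 0.564 to 3.59 CPM at 1 month and 0.0566 to 0.524 CPM at 24 months, with a value of -2.94 (adjusted p = 0.0759), and COL9A2 did not pass the filter on low counts.

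COL12A1, which links fibrils to the surrounding matrix, had 150, 29.7 and 243 CPM at 1 month, 270, 220 and 200 CPM at 12 months and 239, 215 and 245 CPM at 24 months. The 1-month libraries spread across and below the adult range, with replicate 2 lowest. Its log2 fold changes of 0.80 (SE 0.653) and 0.87 (SE 0.650) did not pass (edgeR adjusted p = 0.394 and 0.378). COL14A1, a FACIT of similar build, had values of -1.13 and -0.80, COL16A1 of -0.75 and -0.99 and COL21A1 of -0.83 and -1.86, and none of these passed.

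The 2 multiplexins are proteoglycan collagens of basement membrane zones, and their fitted values had opposite signs. COL18A1, whose C-terminal fragment is endostatin, had 76.7, 77.0 and 62.0 CPM at 1 month (71.9 ± 8.57, SD, n = 3), 141, 121 and 156 CPM at 12 months (139 ± 17.6, SD, n = 3) and 116, 157 and 271 CPM at 24 months (181 ± 80.3, SD, n = 3). All adult libraries lay above all 1-month libraries, and 1 month replicate 2 was like the others of its age. COL18A1 rose 2.01-fold by 12 months (log2 fold change 1.00, SE 0.259, edgeR adjusted p = 0.0404), a call that held in 3 of 8 other settings, and its value by 24 months was 1.45 (SE 0.441, adjusted p = 0.0555). COL15A1 had 133, 36.7 and 112 CPM at 1 month and 45.4 to 54.4 CPM in the adults. Its values of -0.82 and -0.81 did not pass (edgeR adjusted p = 0.218 and 0.265). Its 1 month replicate 2, at 36.7 CPM, was the lowest of all 9 libraries, so leaving it out lowers the values by itself. Without it COL15A1 was called at both ages, with -1.28 by 12 months (edgeR adjusted p = 0.00150) and -1.23 by 24 months (adjusted p = 0.0147).

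COL17A1, the transmembrane collagen of hemidesmosomes, had 102, 254 and 60.4 CPM at 1 month and 81.9 to 101 CPM in the adults, so 1 month replicate 2 was the highest of the 9 libraries. Its values of -0.56 and -0.54 did not pass (edgeR adjusted p = 0.471 and 0.533). COL7A1, the anchoring fibril chain under stratified epithelia, had 3.73 to 10.6 CPM over all libraries and values of -0.05 and -0.37. COL26A1 had 1.96 to 2.64 CPM at 1 month, 3.55 to 4.81 CPM at 12 months and 4.13 to 10.7 CPM at 24 months, with both adult groups above the 1-month libraries, and its values of 0.95 and 1.75 did not pass (adjusted p = 0.119 and 0.0586). COL8A1, COL8A2, COL13A1 and COL28A1 did not pass either, with values between -1.07 and 1.13, and COL23A1 was tested at 24 months only, with -1.67.

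The filter on low counts kept 7 members out of the edgeR tests of all 3 comparisons. These were COL10A1, COL19A1, COL20A1, COL25A1, COL9A2, LOC102176755 and LOC108634753, none of which was above 0.805 CPM in any library. LOC102179365, described as an alpha-1(I) chain, was tested at 12 months only (-1.23, adjusted p = 0.370). A further 29 RefSeq genes have products that end in chain-like and were not taken as members. Of these, 15 had 3 counts or fewer in every library and 3 exceeded 100 counts in at least 1 library. One of the 3, LOC108634769, an alpha-1(I) chain-like gene, had 5593 to 24006 expected counts at 1 month and 11450 to 49705 in the adults, and whether reads of it and of COL1A1 were split by the counting was not tested. Another, LOC108635555, had 1464, 582 and 1500 counts at 1 month and 118 to 479 counts in the adults, without overlap. The last, LOC108634846, had 7.13 to 39.8 counts at 1 month and 10.8 to 126 counts in the adults, which overlapped.

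**Figure D3:**
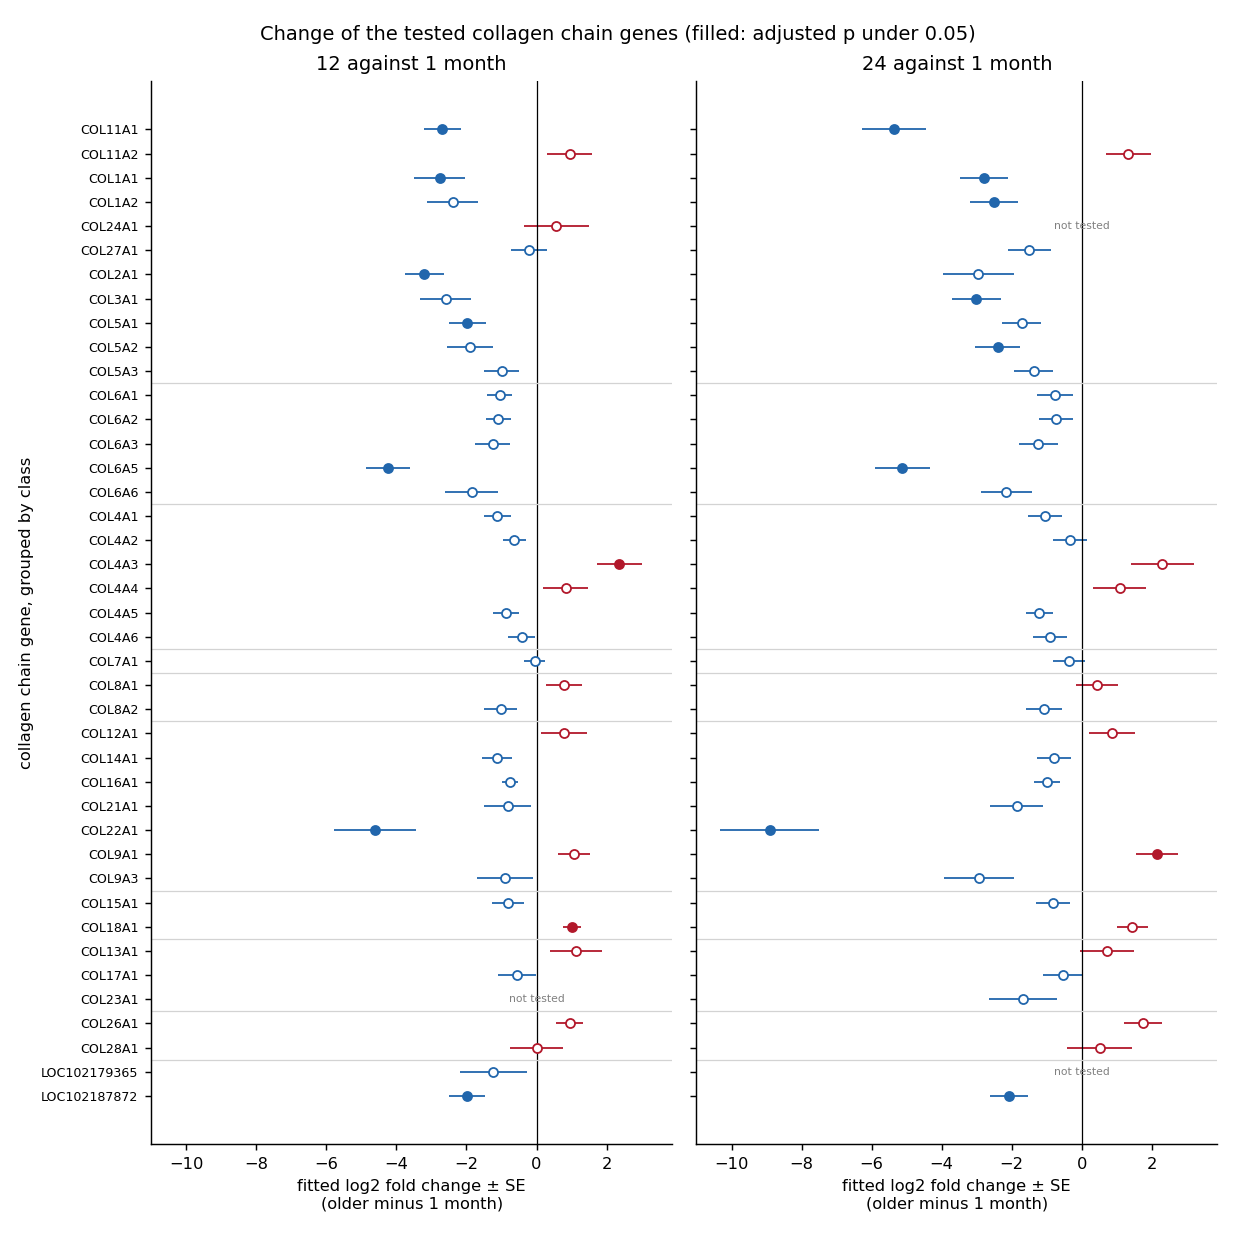
Fitted log2 fold change ± SE of each tested collagen chain gene at 12 and 24 months against 1 month, grouped by class, blue below 0 and red above it. Filled points passed at an adjusted p under 0.05, 9 in each panel. The COL22A1 point at 24 months is a fit to libraries at 0 and depends on the prior count.

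Counted over all members, 9 of the 40 tested at 12 against 1 month passed, against 18.3% of all genes tested in that comparison. Of the 9, 7 were lower at 12 months, where 11.8% of all genes were called lower, and 2 were higher, where 6.49% were. At an unadjusted p under 0.05 there were 21, beside 37.8% of all genes. The median log2 fold change of the 40 was -0.89, beside -0.02 over all genes. In the comparison of 24 with 1 month 9 of 39 passed against 17.6% of all genes, with 8 lower (10.6% of all genes) and 1 higher (7.08%). At an unadjusted p under 0.05 there were again 21, beside 34.3% of all genes. The median of the 39 was -1.06, beside -0.01 over all genes. Both shares of called members, 22.5% and 23.1%, were close to the share of all genes, while the medians were lower. By class, 4 of 11 fibrillar genes fell by 12 months (median -1.97) and 5 of 10 by 24 months (median -2.45), against 1 of 6 (median -0.53) and 0 of 6 (median -0.62) type IV genes, and in type IV the 1 call was a rise. Of the type IV genes at 24 months 2 had an unadjusted p under 0.05 in edgeR. DESeq2 called COL4A1 lower and COL4A3 higher at 12 months and COL4A5 lower at 24 months. With the fold threshold of the study added (an absolute log2 fold change over 2), 6 members were called at 12 months, where 11.7% of all genes were, and 9 at 24 months, where 13.4% were. COL11A1, COL1A1, COL22A1, COL6A5 and LOC102187872 were called in both comparisons, which share the 1-month libraries. The share of all genes called in both was not counted, so no result is read from this list.

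Leaving out 1 month replicate 2 raised the number of calls at both ages. At 12 against 1 month 24 members then passed, 23 lower and 1 higher, but so did 43.3% of all genes, and at 24 against 1 month 21 passed, 19 lower and 2 higher, with 27.9% of all genes. In these fits 22.1% and 14.2% of all genes were called lower, and 21.1% and 13.8% higher. For each gene named below as lower, replicate 2 was the lowest 1-month library, so leaving it out lowers the value by itself. The calls made without it are therefore no separate evidence of a fall. Without this library COL1A1, COL1A2 and COL3A1 fell by 3.23, 2.92 and 3.14 on the log2 scale by 12 months (SE 0.582, 0.514 and 0.424), with edgeR adjusted p of 0.00732, 0.00680 and 0.00306. COL6A1, COL6A2 and COL6A3 then fell by 1.42, 1.44 and 1.70 and COL4A1 by 1.49 by 12 months, all of them called. By 24 months COL6A3 and COL4A1 were called (-1.65 and -1.39), and COL6A1 and COL6A2 were not (adjusted p = 0.0801 and 0.0732). COL5A1, COL5A2 and LOC102187872 had values of -2.41, -2.46 and -2.40 at 12 months and -2.12, -2.91 and -2.45 at 24 months without it, all called. Other genes called lower in these fits were COL4A2 (-0.95), COL14A1 (-1.36) and COL23A1 (-3.35) at 12 months, COL9A3 (-3.42) at 24 months, and COL4A5 (-1.12 and -1.40), COL6A6 (-2.44 and -2.69), COL16A1 (-0.84 and -1.04) and COL21A1 (-1.37 and -2.35) at both ages. Of the higher calls, COL4A3 at 12 months was lost (2.13, adjusted p = 0.0547), COL9A1 at 24 months held (1.80, adjusted p = 0.0390), and COL18A1 was called at both ages (1.01 and 1.48, adjusted p = 0.00609 and 0.0293). COL12A1 was not called without this library either, with values of 0.23 and 0.36, and COL17A1 had 0.19 and 0.25.

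**Figure D4:**
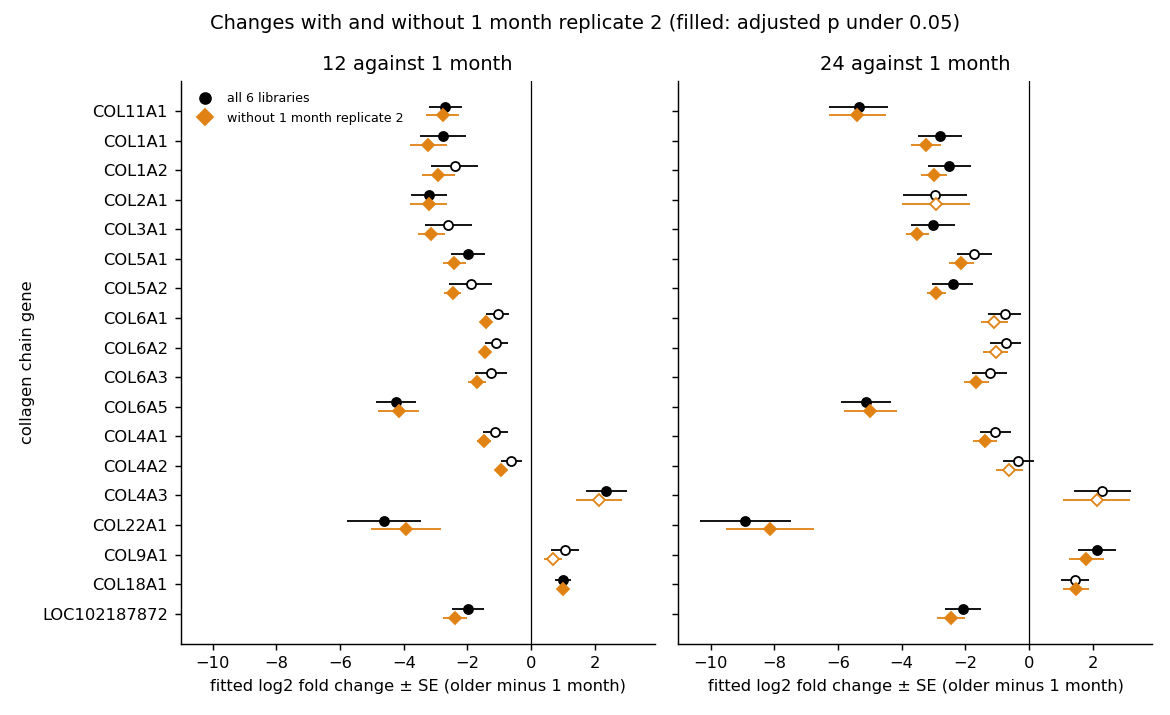
Fitted log2 fold change ± SE of 18 collagen chain genes at 12 and 24 months against 1 month with all 6 libraries (circles) and without 1 month replicate 2 (diamonds), filled where the adjusted p was under 0.05. The type I, III and V genes move to lower values without this library, COL1A1 from -2.77 to -3.23 at 12 months, while COL11A1 and COL6A5 stay close to their place. For those type I, III and V genes this library was the lowest at 1 month.

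The calls also rested on the adult libraries. Without any one of the 12-month libraries no member was called at 12 against 1 month, and over all genes the number of calls dropped to 0, 75 and 125 without replicates 1, 2 and 3. At 24 against 1 month COL11A1 was called in all 6 fits that left out 1 library and in 8 of 8 other settings. COL6A5 and COL22A1 were called in 5 of these 6 fits, COL3A1 in 2 and each of COL1A1, COL1A2, COL5A2, COL9A1 and LOC102187872 in 1, the fit without 1 month replicate 2.

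Between 24 and 12 months no member was called of 35 tested in edgeR's quasi-likelihood test, as was none of the 14289 genes tested (0.0%). DESeq2 called no member either. At an unadjusted p under 0.05 there were 3 members, beside 10.9% of all genes. The median log2 fold change of the members was -0.06, beside 0.04 over all genes. Without 24 months replicate 1, 31.6% of all genes and 3 members were called, with COL9A1 (1.32, adjusted p = 0.0266) and COL26A1 (1.04, adjusted p = 0.0480) higher (as were 17.6% of all genes) and COL27A1 (-1.61, adjusted p = 0.0256) lower at 24 months (14.0%).

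Other genes of collagen assembly were read from a list of 81 genes, of which 74 were tested in each comparison with 1 month. At 12 against 1 month 11 passed, 7 lower and 4 higher (median -0.07), and at 24 against 1 month 12 passed, 5 lower and 7 higher (median -0.22). Their shares of calls, 14.9% and 16.2%, were below or near those of all genes (18.3% and 17.6%), and their medians lay closer to those of all genes than the medians of the collagen chains did.

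Inside the cell, procollagen is hydroxylated, glycosylated and folded. P4HB, protein disulfide isomerase and the beta subunit of prolyl 4-hydroxylase, had 402, 219 and 433 CPM at 1 month, 1521, 1406 and 1701 CPM at 12 months and 1797, 2674 and 2295 CPM at 24 months, and the 3 ages did not overlap. It rose by 2.21 (SE 0.384) and 2.82 (SE 0.532) on the log2 scale (edgeR adjusted p = 0.0146 and 0.0132). P4HB also acts in the folding of other secreted proteins. CRTAP, a partner of prolyl 3-hydroxylase, rose by 1.25 and 1.32 (adjusted p = 0.0275 and 0.0363), FKBP10, a procollagen chaperone, rose by 1.80 by 24 months (adjusted p = 0.0349), and COLGALT1, a collagen galactosyltransferase, fell by 1.28 by 12 months (adjusted p = 0.0490). SERPINH1, the procollagen chaperone HSP47, named here after its values were seen, had 98.9, 34.5 and 97.2 CPM at 1 month, 49.2, 28.9 and 37.2 CPM at 12 months and 21.7, 27.4 and 33.9 CPM at 24 months. Its values of -0.93 (SE 0.431) and -1.34 (SE 0.464) did not pass (edgeR adjusted p = 0.161 and 0.0813). Its 1 month replicate 2 was the lowest of that age, so leaving it out lowers the values by itself. Without it they were -1.35 and -1.72 (edgeR adjusted p = 0.00568 and 0.00565).

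Outside the cell, propeptides are cut off and fibrils are cross-linked. ADAMTS2, a procollagen N-proteinase, had 32.5, 14.1 and 32.0 CPM at 1 month and 9.57, 8.69 and 6.29 CPM at 12 months, and fell by 1.60 (SE 0.386, edgeR adjusted p = 0.0340). At 24 months it had 5.18, 5.88 and 23.1 CPM, overlapping with 1 month, and a value of -1.07 (adjusted p = 0.280). ADAMTS14, a protease of the same kind, was highest in 1 month replicate 2 (38.4 CPM, against 10.6 and 4.55 CPM), the library with the highest thymus marker level. It was at most 0.306 CPM in the adults and fell at both ages (edgeR adjusted p = 0.0170 and 0.00829). TLL2, a tolloid-like protease, rose by 2.11 by 24 months from 0.444 to 0.493 CPM at 1 month (adjusted p = 0.0492). Of the lysyl oxidases, LOXL2 fell by 1.77 by 12 months (adjusted p = 0.0439) and LOXL4 rose by 2.04 and 2.71 (adjusted p = 0.0326 and 0.0154).

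SPARC, a collagen-binding protein of the matrix, had 573, 286 and 701 CPM at 1 month, 178, 144 and 132 CPM at 12 months and 97.5, 143 and 147 CPM at 24 months, with all 1-month libraries above all adult ones. It fell by 1.71 (SE 0.385) and 1.87 (SE 0.476) on the log2 scale (edgeR adjusted p = 0.0285 and 0.0320). THBS2, a thrombospondin that binds matrix and proteases, fell by 2.44 by 24 months (adjusted p = 0.0173). The small proteoglycans DCN, LUM, BGN and FMOD, which coat fibrils and were named after their values were seen, did not pass at either age. DCN had 256, 36.5 and 219 CPM at 1 month, 165, 164 and 133 CPM at 12 months and 139, 132 and 104 CPM at 24 months, with values of -0.07 (SE 0.628) and -0.31 (SE 0.632). Its 1 month replicate 2 was the lowest of all 9 libraries, so leaving it out lowers the values by itself. Without it DCN had values of -0.62 by 12 months (edgeR adjusted p = 0.0204) and -0.82 by 24 months (adjusted p = 0.0767). LUM had values of 0.34 and -0.57, BGN of -0.07 and 0.37 and FMOD of 0.23 and 0.54. With total counts as library sizes, LUM and FMOD at 12 months and BGN and FMOD at 24 months turned below 0. That scaling moved the median of all genes to -0.51 and -0.71, so these turns follow a shift of all genes.

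**Figure D5:**
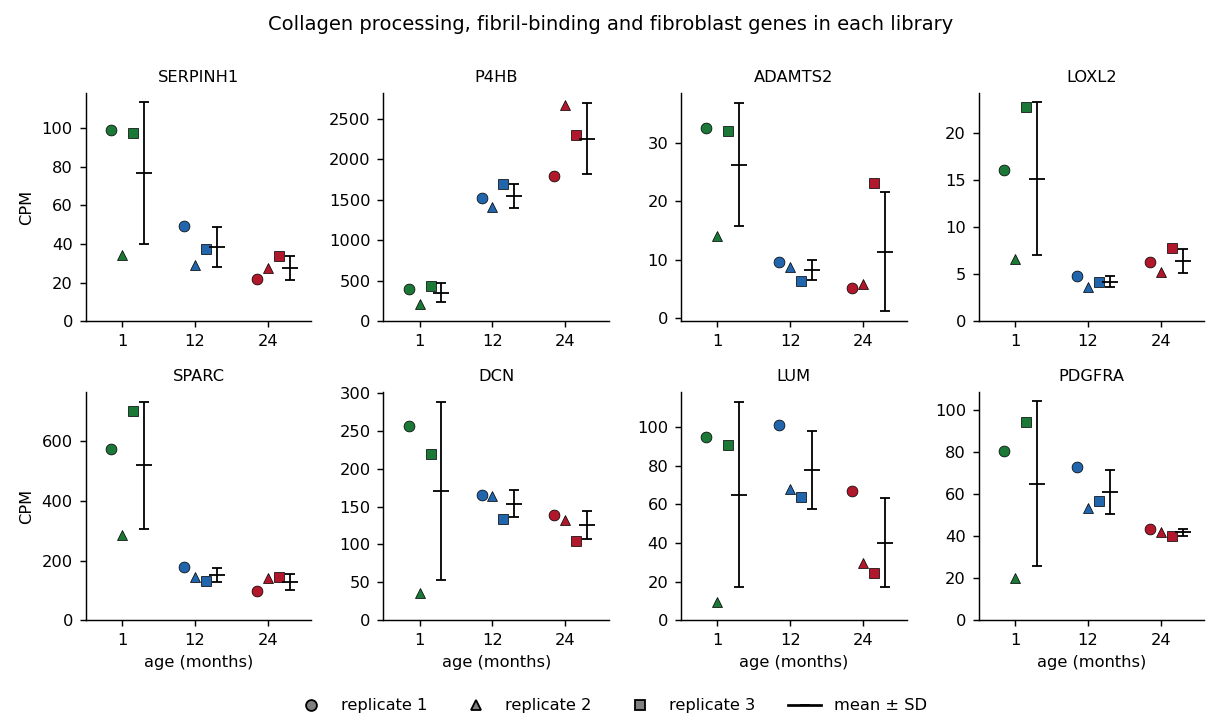
CPM of 8 genes of collagen processing, fibril binding and fibroblasts in each library by age in months, each panel with its own linear axis, with the mean ± SD (n = 3) beside the points. SPARC and ADAMTS2 are high at 1 month, P4HB is low at 1 month, and DCN, LUM and PDGFRA overlap between 1 and 12 months with replicate 2 lowest.

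Among genes of collagen breakdown, MMP14, a membrane collagenase, fell by 1.65 by 12 months (edgeR adjusted p = 0.0146), and MMP9, a gelatinase of leukocytes, fell by 5.66 and 5.81 (adjusted p = 0.0147 and 0.00794) to at most 0.371 CPM. None of the 6 leukocyte markers was at 3 counts or fewer in all libraries of an age. They summed to 396, 946 and 764 CPM at 1 month and 97.5 to 189 CPM in the adults. Of these markers 4 were called lower at 12 months (11.8% of all genes) and 3 at 24 months (10.6%). Their part in the MMP9 result was not tested. TIMP2, an inhibitor of these proteases, rose by 2.39 by 24 months (adjusted p = 0.0351). Of the collagen receptors, DDR1, which is found on epithelia, had 46.0, 28.1 and 35.0 CPM at 1 month, 96.1, 92.5 and 98.1 CPM at 12 months and 82.5, 128 and 181 CPM at 24 months, with all adult libraries above all 1-month libraries, and rose by 1.46 and 1.97 (adjusted p = 0.0157 and 0.0201). DDR2, its relative in fibroblasts, named after its values were seen, had values of -0.14 and -0.25 and did not pass. Among the partners of type IV collagen in the basement membrane, LAMA1 fell by 5.10 by 24 months (edgeR adjusted p = 0.0202) from 2.81, 40.5 and 5.77 CPM. It was highest in 1 month replicate 2, which also had the highest thymus marker level. No other laminin, nidogen or perlecan gene of the list was called by edgeR at either age. DESeq2 called LAMA1 at both ages and LAMC1 at 12 months, all lower.

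With all libraries, edgeR called none of the 10 fibroblast markers at 12 or 24 months against 1 month (medians 0.09 and -0.33). Of the 10, 5 were fitted lower and 5 higher at 12 months, and 7 lower and 3 higher at 24 months. In each comparison 2 of them had an unadjusted p under 0.05, beside 37.8% and 34.3% of all genes. DESeq2 called 1 at 12 months, lower (25.6% of all genes), and 2 at 24 months, 1 lower and 1 higher (22.0%). PDGFRA, a receptor of fibroblasts, had 80.6, 20.4 and 94.2 CPM at 1 month, 73.0, 53.4 and 56.8 CPM at 12 months and 43.6, 41.9 and 40.0 CPM at 24 months, with values of -0.01 (SE 0.517) and -0.50 (SE 0.523). Without 1 month replicate 2, its lowest library, PDGFRA had a value of -0.51 by 12 months (edgeR adjusted p = 0.0572) and fell by 0.95 by 24 months (adjusted p = 0.0357). The other fibroblast markers are not given for this fit, so the medians above hold only for fits that include replicate 2. In that library the summed fibroblast marker level was 298 CPM, against 718 and 655 CPM in 1 month replicates 1 and 3. These medians therefore cannot be set beside the collagen values from fits without replicate 2. All 7 cell cycle genes of the marker lists were called lower at both adult ages (medians -4.79 and -5.26), beside 11.8% and 10.6% of all genes. Their summed levels were 1124, 2815 and 938 CPM at 1 month and 43.1 to 75.2 CPM in the adults. The salivary markers had medians of 2.04 and 2.44, with 3 and 4 of 10 called higher, beside 6.49% and 7.08% of all genes. Endothelial markers summed to 519, 351 and 776 CPM at 1 month and 305 to 581 CPM in the adults, and cartilage markers to 11.2 to 77.4 CPM and 122 to 199 CPM. Of the 7 cartilage markers, 2 and 3 were tested at 12 and 24 months against 1 month. ACAN and MATN1 had 3 counts or fewer in every 12-month library, and MATN1 and HAPLN1 in every 24-month library. The cartilage sum therefore rests on part of its list. All 11 thymus markers were called lower at both adult ages, beside 11.8% and 10.6% of all genes. Of these markers, 5 (RAG2, DNTT, FOXN1, PRSS16 and PSMB11) had 3 counts or fewer in every 12-month library. The part of these cell populations in the collagen differences was not tested.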

How the data were processed

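Bulk RNA-seq was measured in 9 submandibular glands, 1 per goat, 3 at each age, so p-values measure the spread between goats. The values are expected counts per transcript, which the authors obtained with RSEM and deposited without normalization for depth or length, after removal of ribosomal reads with Bowtie2 (2.2.8), alignment with TopHat2 (2.1.1) and assembly with Cufflinks, the tools given in the submitters' processing notes. The genome build is not given in the sources used here, so no coordinates are given, and the RefSeq table of goat served for names and for neighbouring genes only. It matched 42652 of 42686 RefSeq transcripts, while 432 of 10053 new transcripts had no symbol. Multiple mapping and gene copies can shift such estimates between transcripts.

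Expected counts were summed to genes and rounded. Each pair of ages was fitted on the 6 libraries with edgeR 4.0.16 (R 4.3.3) by TMM scaling, its default filter on low counts and the quasi-likelihood test, with Benjamini-Hochberg adjustment over all genes tested, and calls were made below an adjusted p of 0.05. The test was checked on simulated data, where it missed most of the changed genes and fell short of the mark first set for it, which was then lowered. A gene that did not pass is therefore not shown to be unchanged. The share of false calls on the simulated data was also above the threshold, so calls may be false more often than the threshold states. Log2 fold changes are older minus younger, and SE is the absolute log2 fold change divided by the square root of the F value. CPM uses TMM sizes over 9 libraries. The study's fold threshold (2 on the log2 scale) was an alternative, and its FPKM filter could not be applied to counts without lengths. DESeq2 1.42.0, other scalings, no filter, all 9 libraries in a single fit, a replicate block, RefSeq transcripts only, single transcripts and leaving out each library were the other alternatives. The members and gene lists were chosen with earlier results of these data known. Full values are given for members called in any comparison and for COL1A1, COL1A2, COL3A1, COL4A1, COL4A2 and COL6A1 to COL6A3, and of the assembly list called genes are named, at most 3 per group and direction. No test for single outlying libraries was made.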

Additional observations from a re-analysis of the deposited data

How the results depend on the processing

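No collagen or collagen assembly result reversed its direction while called. At 12 against 1 month, the 9 of 40 collagen genes called (18.3% of all genes) became 15 of 40 with total counts as library sizes (23.4% of all genes), 18 of 46 with DESeq2 (25.6%), 5 of 38 with RefSeq transcripts only (14.5%) and 0 with transcripts tested 1 by 1 (2.98% of all transcripts). At 24 against 1 month, the 9 of 39 (17.6% of all genes) became 17 of 39 with total counts (23.7%), 17 of 48 with DESeq2 (22.0%), 19 of 41 with all 9 libraries in a single fit (29.0%) and 1 with single transcripts (1.5% of all transcripts). Total counts moved the median of all genes to -0.51 and -0.71 and removed every higher call (15 lower and 0 higher at 12 months, 17 lower and 0 higher at 24 months, against 7 and 2, and 8 and 1), while DESeq2 gave 16 lower and 2 higher, and 14 lower and 3 higher. Leaving out 1 library gave 0 to 24 collagen calls at 12 months, 1 to 21 at 24 months and 0 to 3 between 24 and 12 months, the highest without 1 month replicate 2 or, between the adult ages, 24 months replicate 1, while the calls over all genes ran from 0 to 6591, from 309 to 4295 and from 0 to 4614. At 12 months 5 and 3 were called without 1 month replicates 1 and 3 (13.5% and 11.6% of all genes). None was called without any one of the 12-month libraries (0.0% to 0.814%). At 24 months 4 were called without either of 1 month replicates 1 and 3 (12.5% and 10.4% of all genes). Without either of 24 months replicates 1 and 2 there were 3 (10.4% and 3.62%), and without 24 months replicate 3 there was 1 (2.02%). Of the assembly genes, the 11 called at 12 months became 17 with total counts (23.4% of all genes) and 19 with DESeq2 (25.6%). They became 1 with single transcripts (2.98% of all transcripts) and 4 with the fold threshold (11.7% of all genes). Leaving out a library gave 0 to 35, with 35 without 1 month replicate 2 (43.3%) and 4 without replicate 3 (11.6%). None was called without any one of the 12-month libraries (0.0% to 0.814%). The 12 called at 24 months became 20 with all libraries in a single fit (29.0% of all genes) and 0 with single transcripts (1.5% of all transcripts). Leaving out a library gave 1 to 22, with 22 and 7 without 1 month replicates 2 and 3 (27.9% and 10.4% of all genes). Without 24 months replicates 1, 2 and 3 there were 5, 2 and 1 (10.4%, 3.62% and 2.02%). Between 24 and 12 months the 0 called became 1 with DESeq2 (0.141% of all genes), and 0 to 20 on leaving out a library, 20 without 24 months replicate 1 (31.6%). Same-numbered libraries came from different goats, and the correlations of their deviations ran from -0.18 to 0.34 over 9 pairs, with 2 over 0.1. Those of different-numbered libraries of different ages ran from -0.34 to 0.27. Such correlations cannot exclude processing shared by number, and the replicate block was kept as an alternative only. With a replicate block, 2 collagen genes and 0 assembly genes were called at 12 months, beside 6.21% of all genes, and 7 collagen genes and 11 assembly genes at 24 months, beside 14.5%. The cause of these differences was not tested. Chains near 3 counts per library, such as COL2A1, COL6A5 and COL22A1 in adults, cannot be given a precise fold at this depth.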

Other observations

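Transcripts of 1 collagen gene shared its counts unevenly among libraries. Of the COL1A2 level in 1 month replicates 1, 2 and 3, 1060, 227 and 1216 CPM came from a newly assembled transcript and 14.5, 5.88 and 23.8 CPM from the RefSeq transcript, so a count over RefSeq transcripts alone leaves out most of this gene. COL1A1 counts lay mostly on RefSeq transcripts, the first of which had 1183, 290 and 1364 CPM at 1 month and the next 448, 160 and 641 CPM. At 24 months the latter had 0, 42.7 and 0.00877 CPM. In COL11A1 the RefSeq transcript took all of the 1.15 CPM of 12 months replicate 2 and none in 12 months replicates 1 and 3, where the new transcript had 0.577 and 1.75 CPM. For COL4A1 the new transcript ranged from 0 to 86.6 CPM and the RefSeq transcript from 96.0 to 119 CPM across the 24-month libraries. Collagen genes are therefore given here as sums over their transcripts.

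Of the other marker lists, skeletal muscle genes summed to 278 CPM in 12 months replicate 2, against 6.64 to 13.5 CPM in the other adult libraries, and to 168 CPM in 1 month replicate 1, against 41.3 and 42.2 CPM in the other 1-month libraries. These libraries had fibrillar shares of 28.8% and 71.6%. Adipocyte markers ranged from 8.28 to 338 CPM at 1 month and Schwann cell markers from 1.48 to 175 CPM, with the lowest value of each in 1 month replicate 2.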
